A study of Mus musculus with 30 samples.

Results

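Fkbp6, Dazl, Ddx4, Mael, Tex101, Taf7l, Slc25a31, Stk31, Stag3 and Smc1b are germline genes whose transcripts were followed across 5 mouse embryonic stem cell lines. They were chosen by symbol, as genes known for promoter methylation in body cells, after a difference in Fkbp6 between untreated lines had been seen. These 10 genes are among the 55421 genes of the table, and all 10 passed the filter on low counts, which kept 19868 genes. Because Fkbp6 drew attention to the group through its level in untreated cells, levels between untreated lines are described here without a test. Tests are given for the changes on treatment. DNA methylation was not among the measurements used here, so the word methylation describes what is known of these genes and not what was seen in these cells.

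In the mouse embryo, germline genes with CpG-rich promoters are silenced by DNA methylation around implantation and stay methylated in body cells, while germ cells erase the mark. In embryonic stem cells the same promoters are also held down by a Polycomb complex called PRC1.6, which reaches DNA through MGA and MAX at the E-box CACGTG and through E2F6 at a site with the core TCCCGC. Cultures with inhibitors of MEK and GSK3 are known for low DNA methylation. Cohesin is a ring-shaped complex that folds chromatin into loops. It is loaded and driven by NIPBL, released from DNA by WAPL, and bound by PDS5A and PDS5B.

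The cells were E14 mouse embryonic stem cells of XY karyotype and 129P2/Ola background, grown in serum with leukemia inhibitory factor and the inhibitors PD0325901 and CHIR-99021. All 5 lines carry the plant F-box protein Tir1, which marks proteins fused to an auxin-inducible degron (AID) for destruction when auxin is added. The TIR1 line (EN148.10) carries Tir1 alone. The PDS5AB line (EN293.1) carries PDS5A-AID and PDS5B-AID, and the WAPL line (CMW184) carries WAPL-AID. The PDS5AB-NIPBL line (EN331.2) and the WAPL-NIPBL line (EN382.1) carry the same AID fusions with NIPBL fused to an FKBP degron, which dTAG-13 triggers, and RAD21 fused to Halo. Treated cells of the TIR1, PDS5AB and WAPL lines received 500 µM auxin for 24 h, and those of the PDS5AB-NIPBL and WAPL-NIPBL lines received 500 µM auxin with 500 nM dTAG-13 for 24 h. Each line is 1 named line, so a difference between lines cannot be told apart from a difference between clones. Protein loss was not measured here.

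Each of the 10 groups (5 lines, untreated and treated) had 3 polyA RNA libraries, with 19632704 to 45539021 counted fragments per library. Nothing in the labels says that replicates were separate cultures, so p-values measure the spread between these libraries. Libraries numbered 1 to 21 hold untreated TIR1 cells and the whole PDS5AB line, and those numbered 25 to 45 hold the rest, with treated TIR1 cells among them. These numbers come from the library names, and the labels do not say what they stand for, so the 2 ranges are called library sets here only by number. Untreated and treated TIR1 cells fall in different sets. If the sets were handled apart, the TIR1 treatment effect and every difference taken against it cannot be told apart from that. Each degron line had all its libraries in 1 set. The 8 pluripotency markers, among them Pou5f1, Nanog and Sox2, summed to 5370 to 6210 in units of CPM (counts scaled to a common library size) in the untreated libraries of all lines. The 8 markers of late male germ cells, such as the protamine Prm2, summed to at most 0.572 CPM in any untreated library, and none of the 8 passed the filter.

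Upstream sequences are printed for 4 members, because 3 of them hold the E-box and Dazl, which was low in the same lines as Fkbp6, does not. They run 5′ to 3′ up to the base before the annotated gene start, all 4 genes lie on the minus strand, and no exon of any gene in the annotation falls within them. Capitals mark CACGTG. The positions on GRCm38.p6 are chr5:135350045-135350294 for Fkbp6, chrX:134476491-134476740 for Taf7l, chr1:166238748-166238994 for Mael and chr17:50293637-50293870 for Dazl. The sequences come from a RefSeq promoter table of that build.
Fkbp6: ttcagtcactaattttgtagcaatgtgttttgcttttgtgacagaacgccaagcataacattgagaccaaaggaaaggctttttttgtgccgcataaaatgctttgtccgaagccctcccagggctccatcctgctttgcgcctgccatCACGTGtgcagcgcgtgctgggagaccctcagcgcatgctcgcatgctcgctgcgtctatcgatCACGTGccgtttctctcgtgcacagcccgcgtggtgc
Taf7l: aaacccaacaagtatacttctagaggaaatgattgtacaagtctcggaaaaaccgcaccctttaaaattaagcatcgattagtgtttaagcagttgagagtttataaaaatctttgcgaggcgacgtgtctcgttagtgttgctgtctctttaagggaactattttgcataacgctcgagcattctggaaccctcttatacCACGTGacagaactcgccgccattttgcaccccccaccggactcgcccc
Mael: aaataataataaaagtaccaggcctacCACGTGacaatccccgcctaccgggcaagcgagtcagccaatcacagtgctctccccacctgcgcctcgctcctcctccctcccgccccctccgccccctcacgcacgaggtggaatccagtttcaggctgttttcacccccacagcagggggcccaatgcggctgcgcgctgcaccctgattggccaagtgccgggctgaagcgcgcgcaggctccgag
Dazl: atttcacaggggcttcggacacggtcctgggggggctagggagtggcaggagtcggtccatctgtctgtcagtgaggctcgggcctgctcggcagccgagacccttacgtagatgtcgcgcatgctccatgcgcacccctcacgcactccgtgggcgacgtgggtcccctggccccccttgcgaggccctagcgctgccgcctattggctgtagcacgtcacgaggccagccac

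Fkbp6 held 2 copies of the E-box, whose first bases lay 101 and 37 bases before its start. The single copy in Taf7l lay 49 bases before its start, and that in Mael lay 220 bases before its start. The table gives windows from 250 bases before to 50 bases after a start, and all 10 members matched it with 12 windows. In these windows the median was 28 CpG, against 7 over all 32851 promoters of the table, and the lowest member window, that of Taf7l, had 17 CpG. CACGTG, which reads the same on both strands, was found in 9 of the 12 windows and in 7 of the 10 genes (Fkbp6, Ddx4, Mael, Taf7l, Slc25a31, Stk31 and Stag3). It was found in 7.15% of all promoters, in 11.5% of the 10320 promoters with at least 17 CpG, and in 25.0% of the 44 windows of a wider germline list described below. TCCCGC on either strand was found in 5 of the 12 windows, against 6562 of the 32851 promoters and 46.9% of those with at least 17 CpG. On the same build, the genes of the plus strand were Slc25a31 at chr3:40708855-40726096, Stag3 at chr5:138280240-138312393 and Stk31 at chr6:49395604-49469501. Those of the minus strand were Mael at chr1:166201201-166238747, Tex101 at chr7:24668007-24676675, Ddx4 at chr13:112598333-112652475, Smc1b at chr15:85064689-85131964, Dazl at chr17:50279395-50293636 and Taf7l at chrX:134460118-134476490. The Tex101 and Stag3 windows lie inside the annotated genes, the first at chr7:24672001-24672300 and the second, with its E-box, at chr5:138280259-138280558. A match is a description of the letters and says nothing of binding in these cells.

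Fkbp6 encodes an immunophilin-like co-chaperone needed for the piRNA pathway and for meiosis in males. The gene (ENSMUSG00000040013.11) lies on GRCm38 chromosome 5, from 135291704 to 135350044, on the minus strand. In untreated cells its 3 libraries stood at 63.3, 69.6 and 69.3 CPM in the TIR1 line. In the PDS5AB line they stood at 0.742, 0.826 and 0.745 CPM, from only 22, 25 and 27 counts. TIR1 had 87.4 times the PDS5AB mean (67.4 ± 3.55 against 0.771 ± 0.0479 CPM, SD, n = 3). The remaining lines lay between these, with 50.9 to 55.2 CPM in WAPL-NIPBL, 43.3 to 49.3 CPM in WAPL and 14.2 to 17.7 CPM in PDS5AB-NIPBL. No library of one line overlapped those of the next, so the order TIR1, WAPL-NIPBL, WAPL, PDS5AB-NIPBL, PDS5AB held in every untreated library. Scaled for transcript length, Fkbp6 had the highest level of the 10 members in untreated TIR1 cells, at 38.5 FPKM (CPM divided by gene length in kilobases), and the lowest in untreated PDS5AB cells, at 0.440 FPKM. Untreated TIR1 and PDS5AB libraries belong to the same library set, and those of the remaining lines to the other.

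The genes beside Fkbp6 did not all share this order. Trim50, a ubiquitin ligase gene that starts 3251 bases to the right of Fkbp6 on the plus strand, had 26, 36 and 54 counts in untreated TIR1 cells and 2, 1 and 2 counts in untreated PDS5AB cells. Its untreated means were 1.48 CPM in TIR1, 1.25 in WAPL-NIPBL, 0.983 in WAPL, 0.164 in PDS5AB-NIPBL and 0.0519 in PDS5AB, which is the order of the Fkbp6 means at a far lower level. Unlike those of Fkbp6, its libraries overlapped between TIR1 (0.955 to 1.91 CPM), WAPL-NIPBL (0.758 to 1.76) and WAPL (0.59 to 1.59). Those of PDS5AB-NIPBL (0.0359, 0.392 and 0.0655) overlapped those of PDS5AB (0.0331 to 0.0674), and 9 of their 12 counts came from 1 library. Nsun5, an RNA methyltransferase gene 19909 bases to the right, stood at 20.6 to 22 CPM in the untreated means of all 5 lines. To the left, Baz1b, a chromatin remodeller subunit gene, stood between 237 and 286 CPM, and the Wnt receptor gene Fzd9 between 3.85 and 6.64 CPM.

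**Figure D1:**
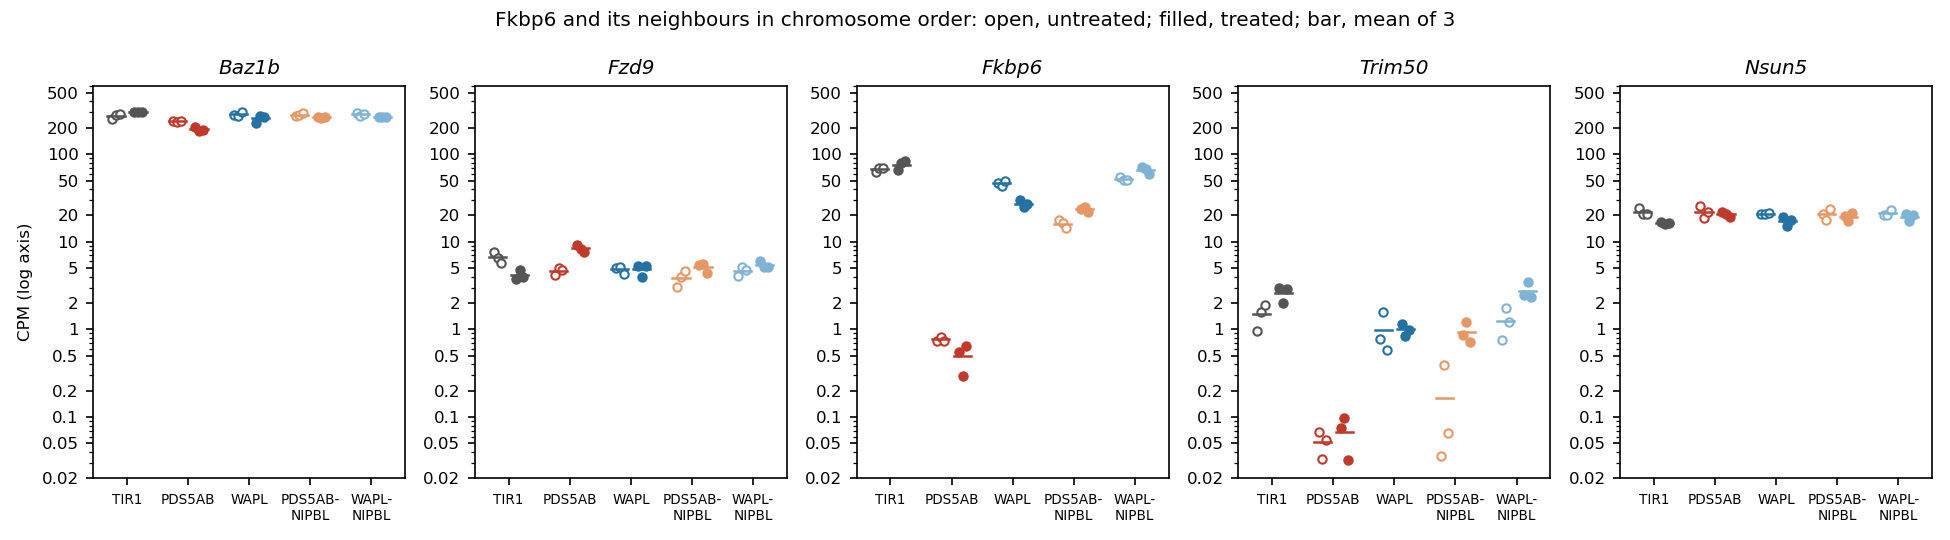
CPM on a log axis for Fkbp6 and its 2 nearest tested genes on each side, in chromosome order, with open points for untreated and filled points for treated libraries and bars for means of 3. Fkbp6 and Trim50 have their lowest means in the PDS5AB line, while the untreated means of Nsun5 lie between 20.6 and 22 CPM in all lines.

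A further 5 members had all 6 untreated libraries of the PDS5AB and PDS5AB-NIPBL lines below all 9 of the other lines. With Fkbp6 this makes 6 of the 10 members, against 3.77% of the 19868 genes tested, and 0 of the 10 had them above, against 3.44%. This is the contrast through which Fkbp6 was chosen, so nothing is read from the count. Dazl encodes an RNA-binding protein that controls translation in germ cells, and its untreated libraries stood at 5.09, 6.38 and 5.27 CPM in PDS5AB and at 9.47, 9.10 and 5.40 CPM in PDS5AB-NIPBL. In TIR1 they stood at 25.0, 25.7 and 23.4 CPM, and the WAPL and WAPL-NIPBL libraries overlapped these, at 23.7 to 33.3 CPM. Smc1b, a meiotic cohesin subunit, had 6.19 to 10.4 CPM in the lines with PDS5A and PDS5B fusions and 17.1 to 33.4 CPM elsewhere. Stk31, a Tudor domain protein of germ cells, had 4.36 to 9.33 CPM there and 11.1 to 38.1 CPM elsewhere, with TIR1 above every other line.

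Tex101 and Taf7l shared this split at low levels. Tex101, a glycoprotein of the germ cell surface, had 1.22 to 3.21 CPM in the untreated PDS5AB and PDS5AB-NIPBL libraries and 3.84 to 9.26 CPM in the rest. Taf7l, a germ cell relative of the TFIID subunit TAF7 encoded on the X chromosome, had 0.696 to 1.55 CPM against 1.76 to 3.21 CPM. For both genes PDS5AB-NIPBL lay below PDS5AB, whereas Fkbp6 and Stk31 were lowest in PDS5AB. Of these 6 members, Fkbp6, Taf7l and Stk31 have the E-box in a promoter window, and Dazl, Tex101 and Smc1b do not.

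The remaining 4 members did not follow the split. Ddx4, a DEAD-box RNA helicase of germ granules, was highest in PDS5AB, at 8.94, 10.5 and 10.7 CPM against 5.50 to 6.91 CPM in TIR1. Mael, a factor of piRNA-guided transposon silencing, was likewise highest in PDS5AB, at 6.95, 8.07 and 7.29 CPM against 3.51 to 3.70 CPM in TIR1, but PDS5AB-NIPBL lay below TIR1 at 1.83 to 2.44 CPM. Slc25a31, a testis ADP/ATP carrier of mitochondria, stayed between 0.827 and 1.75 CPM in all 15 untreated libraries. Stag3, a meiotic cohesin subunit, ran from 20.1 to 22.2 CPM in PDS5AB up to 38.9 to 50.3 CPM in WAPL-NIPBL, with overlaps among the lines in between.

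**Figure D2:**
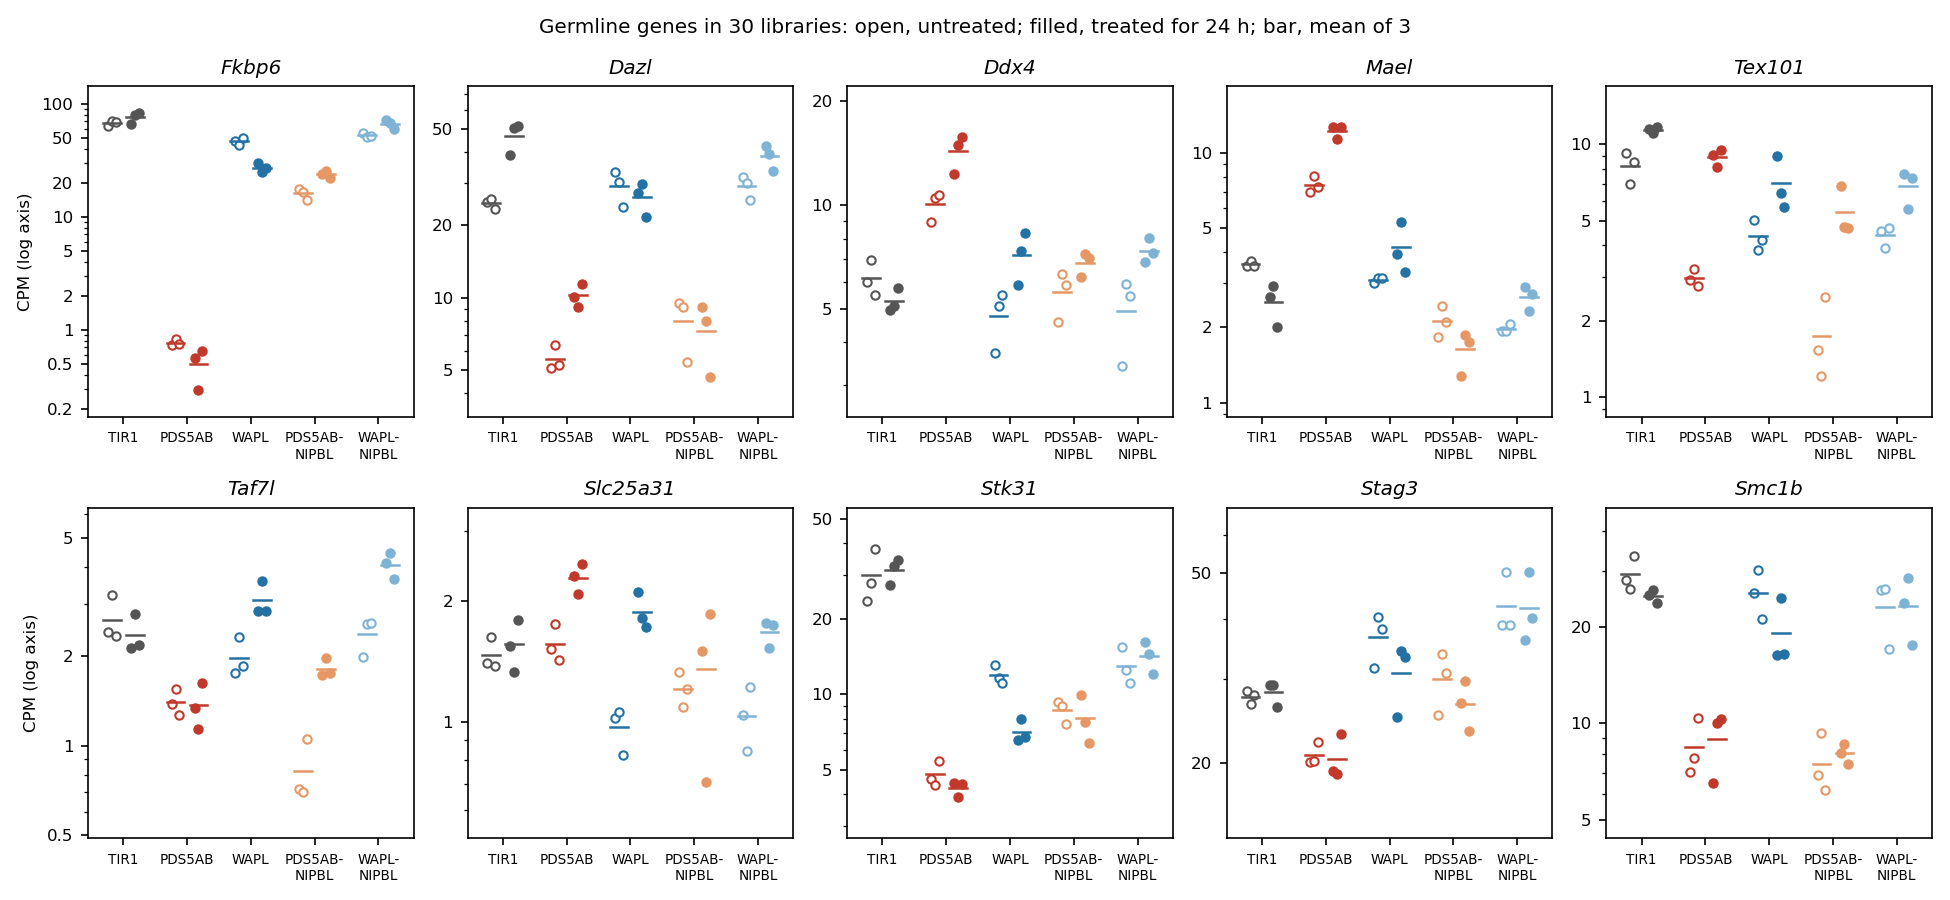
CPM on log axes for the 10 members in all 30 libraries, open for untreated and filled for treated, with bars at the means of 3 libraries. Fkbp6, Dazl, Tex101, Taf7l, Stk31 and Smc1b have their lowest untreated points in the PDS5AB and PDS5AB-NIPBL lines, and Ddx4 and Mael have their highest in PDS5AB.

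Counted against untreated TIR1, PDS5AB had 2 members with all libraries higher and 7 lower, where 20.5% and 20.3% of all genes were (40.8% in all). PDS5AB-NIPBL had 0 higher and 8 lower (20.4% and 22.4%, 42.8% in all). WAPL had 1 higher and 7 lower (14.2% and 15.3%, 29.6% in all), and WAPL-NIPBL had 1 higher and 6 lower (20.1% and 21.4%, 41.5% in all). All but the PDS5AB comparison cross the library sets, which cannot be told apart from the lines in them. Other transcripts also differed between untreated lines. Markers of primitive endoderm, 6 genes with Dab2 and Pdgfra the most abundant, summed to 21.2 to 23.0 CPM in untreated PDS5AB cells and to 4.12 to 12 CPM in the other untreated lines. Primordial germ cell markers, 7 genes of which Kit is the most abundant, summed to 253 to 310 CPM in PDS5AB and to 448 to 643 CPM elsewhere. Dnmt3l, a cofactor of de novo methylation, had means of 308 CPM in PDS5AB, 184 in PDS5AB-NIPBL and 75.6 to 128 in the other lines. Uhrf1, which brings maintenance methylation to replicating DNA, had means of 635 to 838 CPM. The part of these differences in the levels of the members was not tested.

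Genes most like Fkbp6 over the 10 group means of log2 CPM were sought among 12940 genes that averaged 50 counts or more. The top 5 were Nrros (Pearson's r = 0.994), Gm650 (0.985), Eif2b5 (0.981), Gm7972 (0.981) and Naa40 (0.980), and none of these is on chromosome 5. Nrros had a mean of 10.4 CPM in untreated TIR1 cells and 1.66 CPM in untreated PDS5AB cells. Within the members, Stk31 was most like Fkbp6 (0.820) and Ddx4 least (-0.862), and Dazl and Smc1b were most like each other (0.938). These correlations describe 10 means from the same libraries and are dominated by the differences between lines.

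Treatment asked whether 24 h of auxin, alone or with dTAG-13, moved these transcripts within a line. Over the 50 combinations of 10 members and 5 lines, 21 changes passed the test (edgeR's quasi-likelihood test, Benjamini-Hochberg adjusted p under 0.05), 18 of them higher after treatment. Tex101 rose in all 4 degron lines, Ddx4 and Taf7l each rose in 3, and Stag3 and Smc1b passed in none in this fit, which leaves out pairing. Fkbp6 rose in both lines with the NIPBL fusion and fell in the WAPL line. The PDS5AB line had 5 members higher and 0 lower, where 25.8% of all tested genes were higher and 20.2% lower (46% in all). The WAPL line had 5 higher and 2 lower, where 17% of all genes were higher and 15.8% lower (32.8% in all). The PDS5AB-NIPBL line had 3 higher and 0 lower, where 11.4% of all genes were higher and 8.06% lower (19.5% in all). The WAPL-NIPBL line had 4 higher and 0 lower, where 5.11% of all genes were higher and 3.45% lower (8.57% in all). The TIR1 line had 1 higher and 1 lower, where 10.4% of all genes were higher and 9.59% lower (19.9% in all). These counts come from the fit without pairing. With a replicate block, a term for same-numbered libraries, WAPL had 5 higher and 4 lower (Stag3 and Smc1b added) and WAPL-NIPBL had 6 higher (Dazl and Slc25a31 added), and the counts of PDS5AB and PDS5AB-NIPBL were again 5 and 3. The shares of all genes above belong to the fit without the block. No share with the block is given, so nothing is read from the added members. The WAPL-NIPBL count was 2 without untreated replicate 1 or 2 or without any 1 treated replicate. The TIR1 count was 1 without untreated replicate 2 or 3 or treated replicate 1 or 3. Median log2 changes of the members were 0.41 in WAPL-NIPBL, 0.30 in PDS5AB, 0.16 in PDS5AB-NIPBL, 0.14 in WAPL and 0.06 in TIR1, and medians over all genes lay between -0.005 and 0.038. In bulk RNA, a change in the share of cells that express a gene and a change in RNA per cell cannot be told apart.

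**Figure D3:**
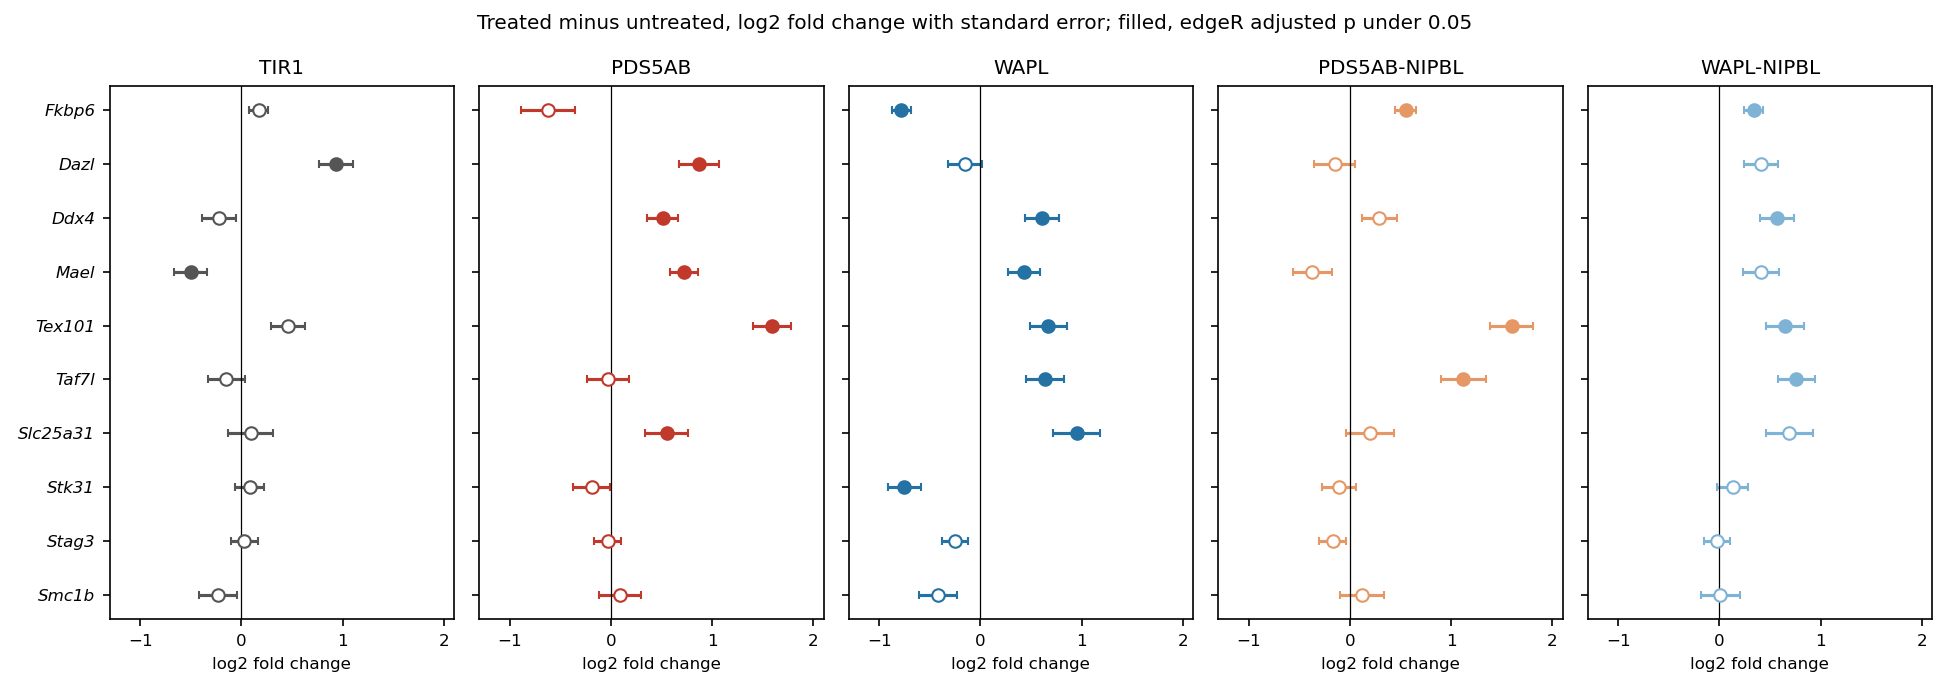
Log2 fold changes, treated minus untreated, with standard errors from edgeR for the 10 members in each line; filled points have an adjusted p under 0.05. Tex101 lies to the right of 0 in every line and is filled in the 4 degron lines, while Fkbp6 lies to the left of 0 in PDS5AB and WAPL and to the right in the lines with the NIPBL fusion.

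Fkbp6 in the WAPL line went from 46.9, 43.3 and 49.3 CPM to 30.1, 24.7 and 26.8 CPM after auxin. All 3 treated libraries lay below all untreated ones, and the gene fell by 0.78 on the log2 scale (SE 0.0968, edgeR adjusted p = 2.39e-07). In PDS5AB-NIPBL it went from 17.7, 16.6 and 14.2 CPM to 23.8, 25.2 and 22.1 CPM, a log2 rise of 0.55 (SE 0.103, edgeR adjusted p = 0.000206). Again the groups did not overlap, and the treated cells still had less Fkbp6 than any untreated TIR1 library. In WAPL-NIPBL it went from 55.2, 50.9 and 51.3 CPM to 71.5, 67.8 and 60.2 CPM, a log2 rise of 0.34 (SE 0.0943, edgeR adjusted p = 0.019). Leaving out any of 4 libraries ended that call, namely treated replicate 1 (edgeR adjusted p = 0.0921), treated replicate 2 (0.0502), untreated replicate 2 (0.066) or untreated replicate 3 (0.0723), and ran from 7.07e-05 to 0.0921 over its alternatives.

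In the PDS5AB line, where Fkbp6 was nearly silent, treated libraries held 15, 9 and 20 counts, or 0.559, 0.294 and 0.653 CPM. The log2 change of -0.62 (SE 0.268) was not called (edgeR adjusted p = 0.0591), although every treated library lay below every untreated one. It was called without treated replicate 3 (0.022), and the adjusted p ran from 0.022 to 0.365 over its alternatives. TIR1 cells went from 63.3, 69.6 and 69.3 CPM to 66.4, 78.7 and 83.0 CPM, with overlap (log2 change 0.17, SE 0.0931, edgeR adjusted p = 0.192). The change differed between the lines with and without the NIPBL fusion. The PDS5AB-NIPBL change exceeded the PDS5AB change by 1.17 on the log2 scale (SE 0.286, edgeR adjusted p = 0.00804), and the WAPL-NIPBL change exceeded the WAPL change by 1.12 (SE 0.135, edgeR adjusted p = 4.02e-06).

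The neighbour Trim50 had 1, 9 and 2 counts in untreated PDS5AB-NIPBL cells and 19, 24 and 20 after treatment (log2 change 2.58, SE 0.544, edgeR adjusted p = 0.000813). The estimate rests on 12 untreated counts in all. In WAPL-NIPBL it went from a mean of 1.25 to 2.78 CPM (log2 change 1.13, SE 0.336, edgeR adjusted p = 0.0303). Leaving out any of 3 libraries ended that call, namely untreated replicate 1 (0.156), untreated replicate 3 (0.101) or treated replicate 2 (0.155), and its range was 0.00196 to 0.156. In the WAPL line, where Fkbp6 fell, Trim50 had a log2 change of 0.01 (SE 0.375, edgeR adjusted p = 0.989). In TIR1 its log2 change was 0.81 (SE 0.328, edgeR adjusted p = 0.078), against 0.17 for Fkbp6. In treated PDS5AB cells it had 1 to 3 counts per library. Of the other neighbours, Fzd9 rose by log2 0.84 in PDS5AB and fell by 0.66 in TIR1 (edgeR adjusted p = 2.68e-05 and 0.00219). Baz1b fell by 0.30 in PDS5AB and by 0.16 in WAPL (edgeR adjusted p = 0.000112 and 0.0385), and the WAPL call was lost in 7 of 11 alternatives, among them leaving out untreated replicate 1 (0.08), 2 (0.0541) or 3 (0.234) or treated replicate 1 (0.354) or 3 (0.0645). Nsun5 fell by 0.42 in TIR1 (edgeR adjusted p = 0.00695), a call lost without untreated TIR1 replicate 1 (0.0828).

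Mael and Ddx4 belong to the germ granule and piRNA machinery with Fkbp6. Mael in PDS5AB went from 6.95, 8.07 and 7.29 CPM to 12.7, 11.4 and 12.7 CPM, a log2 rise of 0.72 (SE 0.141, edgeR adjusted p = 0.000104). In WAPL it went from 3, 3.17 and 3.15 CPM to 3.95, 5.28 and 3.33 CPM, a log2 rise of 0.43 (SE 0.159, edgeR adjusted p = 0.0353). In TIR1 it moved the opposite way, from 3.53, 3.70 and 3.51 CPM to 2.64, 2.92 and 2.01 CPM, a log2 change of -0.50 (SE 0.162, edgeR adjusted p = 0.0283). The groups did not overlap in any of these 3 lines, but only the PDS5AB call held under every alternative. The WAPL call was lost without treated replicate 2 (0.299) or untreated replicate 1 (0.094), 2 (0.059) or 3 (0.0625), with no filter (0.105) and in a fit of the 2 WAPL groups by themselves (0.103), over a range of 0.00711 to 0.299. The TIR1 call was lost without treated replicate 1 (0.059) or 3 (0.183) or untreated replicate 1 (0.0748), 2 (0.0867) or 3 (0.0567) and without the filter (0.094), over a range of 0.0064 to 0.183. Mael was not called in PDS5AB-NIPBL (log2 change -0.37, edgeR adjusted p = 0.195) or WAPL-NIPBL (0.41, edgeR adjusted p = 0.163).

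Ddx4 in PDS5AB went from 8.94, 10.5 and 10.7 CPM to 12.3, 14.9 and 15.8 CPM, a log2 rise of 0.51 (SE 0.154, edgeR adjusted p = 0.00713). In WAPL it went from 3.71, 5.11 and 5.47 CPM to 5.87, 7.36 and 8.31 CPM, a log2 rise of 0.61 (SE 0.168, edgeR adjusted p = 0.00577). In WAPL-NIPBL it went from 3.41, 5.89 and 5.45 CPM to 6.83, 8.02 and 7.26 CPM, a log2 rise of 0.57 (SE 0.169, edgeR adjusted p = 0.0296). Treated and untreated libraries were separate in all 3 lines, and the same-numbered libraries rose in 3 of 3 pairs each time. The WAPL call was lost without untreated replicate 1 (0.06, range 7.16e-05 to 0.06). The WAPL-NIPBL call was lost without untreated replicate 1 (0.202), treated replicate 2 (0.113) or treated replicate 3 (0.0638) and with the compared groups alone (0.0706), over a range of 0.000394 to 0.202. In PDS5AB-NIPBL and TIR1 the log2 changes of 0.29 and -0.22 were not called (edgeR adjusted p = 0.269 and 0.396).

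Stk31 fell in the WAPL line, from 13.1, 11.6 and 11.1 CPM to 6.59, 7.98 and 6.74 CPM, by 0.75 on the log2 scale (SE 0.163, edgeR adjusted p = 0.000601). Its changes in the other 4 lines ran from -0.19 to 0.13 and none was called. Without the replicate block, Stk31 and Fkbp6 were the 2 members called lower in the WAPL line, and with it Stag3 and Smc1b were called lower too, as given below. In WAPL-NIPBL, Stk31 had a log2 change of 0.13 (edgeR adjusted p = 0.707).

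Dazl rose in the TIR1 and PDS5AB lines. In TIR1 it went from 25.0, 25.7 and 23.4 CPM to 39, 50.4 and 51.5 CPM, a log2 rise of 0.93 (SE 0.168, edgeR adjusted p = 0.000195), in the comparison that crosses the library sets. In PDS5AB it went from 5.09, 6.38 and 5.27 CPM to 10.1, 9.18 and 11.4 CPM, a log2 rise of 0.87 (SE 0.197, edgeR adjusted p = 0.000517). Both calls held under every alternative. Treated PDS5AB cells still had less Dazl than any untreated TIR1 library. In WAPL and PDS5AB-NIPBL the log2 change was -0.15 in each (edgeR adjusted p = 0.531 and 0.705). In WAPL-NIPBL it went from 31.5, 29.8 and 25.5 CPM to 42.5, 39.5 and 33.5 CPM, a log2 change of 0.41 (SE 0.168, edgeR adjusted p = 0.136). The groups did not overlap, yet this was called only with a replicate block (0.000191), with no filter (0.0028) or in a fit of the 2 WAPL-NIPBL groups by themselves (0.0241), over a range of 0.000191 to 0.376.

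Tex101 rose in all 4 degron lines, and in PDS5AB and PDS5AB-NIPBL its log2 rise was above that of every other member. In PDS5AB it went from 2.90, 3.21 and 2.76 CPM to 9.10, 8.17 and 9.50 CPM, a log2 rise of 1.59 (SE 0.187, edgeR adjusted p = 4.46e-08). In PDS5AB-NIPBL it went from 1.54, 1.22 and 2.49 CPM to 6.88, 4.70 and 4.69 CPM, a log2 rise of 1.6 (SE 0.213, edgeR adjusted p = 1.87e-06). All treated libraries of both lines lay above all untreated ones, and both calls held under every alternative. In WAPL it went from 5.03, 3.84 and 4.21 CPM to 8.97, 6.43 and 5.68 CPM (log2 rise 0.67, SE 0.184, edgeR adjusted p = 0.00485), and without treated replicate 1 the adjusted p was 0.0511 (range 0.000143 to 0.0511). In WAPL-NIPBL it went from 4.55, 3.88 and 4.68 CPM to 7.66, 5.57 and 7.40 CPM (log2 rise 0.65, SE 0.186, edgeR adjusted p = 0.0236). Leaving out any of 4 libraries ended this call, namely treated replicate 1 (0.0887) or 3 (0.0906) or untreated replicate 1 (0.0513) or 2 (0.104), over a range of 0.00105 to 0.104. In TIR1 the log2 change of 0.46, from 9.26, 7 and 8.51 CPM to 11.5, 11.1 and 11.7 CPM, was just short of a call (edgeR adjusted p = 0.0533). It passed without untreated replicate 1 (0.038), with no filter (0.0162), in a fit of the 2 TIR1 groups by themselves (0.00678) and in DESeq2 (0.0363), over a range of 0.00243 to 0.224.

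Taf7l rose where a WAPL or NIPBL fusion was present. In WAPL it went from 1.76, 2.33 and 1.85 CPM to 2.84, 3.58 and 2.84 CPM (log2 rise 0.64, SE 0.185, edgeR adjusted p = 0.00747). In PDS5AB-NIPBL it went from 0.717, 0.696 and 1.05 CPM to 1.73, 1.97 and 1.75 CPM (log2 rise 1.12, SE 0.225, edgeR adjusted p = 0.000467). In WAPL-NIPBL it went from 1.99, 2.57 and 2.58 CPM to 4.11, 4.44 and 3.63 CPM (log2 rise 0.76, SE 0.181, edgeR adjusted p = 0.00627). All 3 calls held under every alternative, with 16 to 145 counts per library. In PDS5AB and TIR1 the libraries overlapped, with log2 changes of -0.03 and -0.15 (edgeR adjusted p = 0.938 and 0.601).

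Slc25a31 was the least abundant member in untreated TIR1 cells, at 0.690 FPKM. In WAPL it went from 1.02, 1.06 and 0.827 CPM to 2.11, 1.82 and 1.72 CPM (log2 rise 0.95, SE 0.229, edgeR adjusted p = 0.00169), and this call held under every alternative. In PDS5AB it went from 1.52, 1.75 and 1.43 CPM to 2.31, 2.09 and 2.48 CPM (log2 rise 0.55, SE 0.211, edgeR adjusted p = 0.0328). The PDS5AB call was lost without treated replicate 1 (0.0704) or 3 (0.104) or untreated replicate 1 (0.0778) or 3 (0.108) and without the filter on low counts (0.141), over a range of 0.0186 to 0.141. In WAPL-NIPBL the log2 change was 0.69 (SE 0.233, edgeR adjusted p = 0.0614), which passed the test only with a replicate block (0.0286, range 0.0286 to 0.234).

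The meiotic cohesin subunits Stag3 and Smc1b are relatives of the mitotic subunits STAG1, STAG2 and SMC1A, and neither passed the test without pairing in any line. Their log2 changes ran from -0.25 to 0.03 for Stag3 and from -0.42 to 0.12 for Smc1b. Both low values were in the WAPL line, where Stag3 went from 31.7, 40.4 and 38.2 CPM to 25.0, 34.4 and 33.3 CPM (edgeR adjusted p = 0.148) and Smc1b from 25.5, 30.1 and 21.2 CPM to 16.3, 24.6 and 16.5 CPM (edgeR adjusted p = 0.0912). Treated and untreated libraries overlapped, but each same-numbered pair fell, and with a replicate block both were called (edgeR adjusted p = 0.00202 for Stag3, range 0.00202 to 0.597, and 0.00017 for Smc1b, range 0.00017 to 0.354). Smc1b was also called without treated replicate 2 (0.0199) and without the filter on low counts (0.00148). Rec8, the meiotic relative of RAD21 and no member, rose in all 5 lines, by log2 1.42 in PDS5AB, 1.00 in WAPL, 0.74 in TIR1, 0.67 in PDS5AB-NIPBL and 0.47 in WAPL-NIPBL, and its highest edgeR adjusted p over lines and alternatives was 0.0471. In PDS5AB its mean went from 22.5 ± 2.26 to 60.4 ± 5.08 CPM (SD, n = 3). Of the 5 mitotic subunits, 4 fell in PDS5AB, where 20.2% of all genes did (Rad21, Smc1a, Smc3 and Stag2, with log2 changes from -0.41 to -0.28), and the Smc1a call was lost without treated replicate 1 (edgeR adjusted p = 0.118) or untreated replicate 2 (0.0856) or 3 (0.0755). In WAPL, Rad21 and Smc3 were called lower and Stag1 and Stag2 higher (15.8% and 17% of all genes). With only the WAPL groups in the fit, the calls of Rad21 (0.11), Smc3 (0.143) and Stag2 (0.065) were lost. Smc3 also lost its call without untreated WAPL replicate 1 (0.0558) or 2 (0.144) or treated replicate 1 (0.131) or 3 (0.173), and Stag2 without untreated replicate 1 (0.0652) or treated replicate 2 (0.146). In TIR1 Stag1 was called higher, but not without untreated TIR1 replicate 1 (0.0851), and in the lines with the NIPBL fusion 0 of the 5 were called. With the replicate block, 4 were lower and 1 higher in PDS5AB, 3 lower and 2 higher in WAPL, 3 lower and 1 higher in PDS5AB-NIPBL, and 2 lower in WAPL-NIPBL. In TIR1, whose libraries share only a number, it called 4 higher. No share of all genes is given with the block.

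The 7 differences between treatment effects were tested in the same fit, and those against TIR1 share the TIR1 libraries with each other. For PDS5AB minus TIR1, 3 members were called higher and 1 lower (13.9% and 12.4% of all genes, 26.3% in all). For WAPL minus TIR1 the members were 3 higher and 3 lower (9.86% and 10.9%, 20.7% in all). For PDS5AB-NIPBL minus TIR1 they were 2 higher and 1 lower (5.28% and 4.81%, 10.1% in all), and for WAPL-NIPBL minus TIR1 3 higher and 0 lower (3.1% and 3.94%, 7.04% in all). Between degron lines, PDS5AB-NIPBL minus PDS5AB had 2 higher and 2 lower (4.97% and 4.48%, 9.46% in all). WAPL-NIPBL minus WAPL had 2 higher and 0 lower (3.03% and 2.16%, 5.19% in all), and PDS5AB minus WAPL had 2 higher and 0 lower (7.38% and 5.11%, 12.5% in all). The WAPL-NIPBL minus TIR1 count was 1 without untreated TIR1 replicate 2, treated TIR1 replicate 1 or 3, untreated WAPL-NIPBL replicate 1 or treated WAPL-NIPBL replicate 2 or 3. The WAPL-NIPBL minus WAPL count was 1 without treated WAPL-NIPBL replicate 1, untreated WAPL-NIPBL replicate 3, untreated WAPL replicate 1 or treated WAPL replicate 3. The PDS5AB minus WAPL count was 1 without untreated PDS5AB replicate 3, untreated WAPL replicate 1 or treated WAPL replicate 3. With the replicate block, the counts for WAPL-NIPBL minus WAPL and for PDS5AB minus WAPL were 4 each, all higher. The shares of all genes above belong to the fit without the block, so nothing is read from these counts.

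Adding the NIPBL fusion and dTAG-13 to the PDS5AB line went with changes in opposite directions. Fkbp6 and Taf7l changed more in the upward direction in PDS5AB-NIPBL than in PDS5AB, by log2 1.17 and 1.15 (edgeR adjusted p = 0.00804 and 0.0146). Mael and Dazl did the reverse, with log2 differences of -1.09 (SE 0.238, edgeR adjusted p = 0.00319) and -1.02 (SE 0.284, edgeR adjusted p = 0.0201). The Dazl difference was lost without treated PDS5AB-NIPBL replicate 3 (0.0873), untreated PDS5AB-NIPBL replicate 1 (0.0686) or 2 (0.0576) or treated PDS5AB replicate 3 (0.0538) and with the compared groups alone (0.057), over a range of 1.08e-06 to 0.0873. Tex101 had log2 rises of 1.59 and 1.6 in these lines, a difference of 0.00 (SE 0.231, edgeR adjusted p = 0.997). The lines also differ in the RAD21 fusion, in library set and in clone, which cannot be told apart from the NIPBL fusion here.

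A wider list of 40 germline genes, of which 37 were tested, was chosen with results of these data known and is given as a description. In PDS5AB, 17 of its genes were higher and 4 lower, where 25.8% and 20.2% of all genes were. In WAPL, 13 were higher and 5 lower (17% and 15.8% of all genes), and in PDS5AB-NIPBL 11 were higher and 2 lower (11.4% and 8.06%). In WAPL-NIPBL, 11 were higher and 1 lower (5.11% and 3.45%), and in TIR1 5 were higher and 4 lower (10.4% and 9.59%). The PDS5AB-NIPBL total of 13 became 21 under the replicate block, for which no share of all genes is given. Without treated TIR1 replicate 3 the TIR1 total of 9 became 5. Under every alternative run, 15 were higher and 2 lower in PDS5AB, 10 and 4 in WAPL, 6 and 1 in PDS5AB-NIPBL, 6 and 1 in WAPL-NIPBL, and 3 and 1 in TIR1. The median log2 changes were 0.31, 0.19, 0.29, 0.21 and -0.04 in the same order. Piwil4, a nuclear piRNA-binding Argonaute of male germ cells, rose in all 4 degron lines, by log2 2.41 in WAPL (from 0.402, 0.635 and 0.787 CPM to 3.07, 3.08 and 3.45 CPM, edgeR adjusted p = 5.95e-09), 1.88 in PDS5AB, 1.62 in PDS5AB-NIPBL and 1.17 in WAPL-NIPBL. Sycp2, a component of the synaptonemal complex, rose by log2 2.39 in WAPL (SE 0.357, edgeR adjusted p = 4.36e-06) and 1.24 in PDS5AB (SE 0.276, edgeR adjusted p = 0.000469). Meioc, needed for meiotic prophase, rose by log2 2.12 in PDS5AB, from 12.2, 14.2 and 16.9 CPM to 54.0, 67.4 and 68.3 CPM (SE 0.188, edgeR adjusted p = 2.35e-10). In untreated cells, 6 of the 37 (Cyct, Hsf2bp, Majin, Tuba3a, Tuba3b and D1Pas1) had all PDS5AB and PDS5AB-NIPBL libraries below all others, 16.2% of the list against 3.77% of all genes, and 2 (Sycp2 and Tdrd7) had them above, where 3.44% of all genes did.

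**Figure D4:**
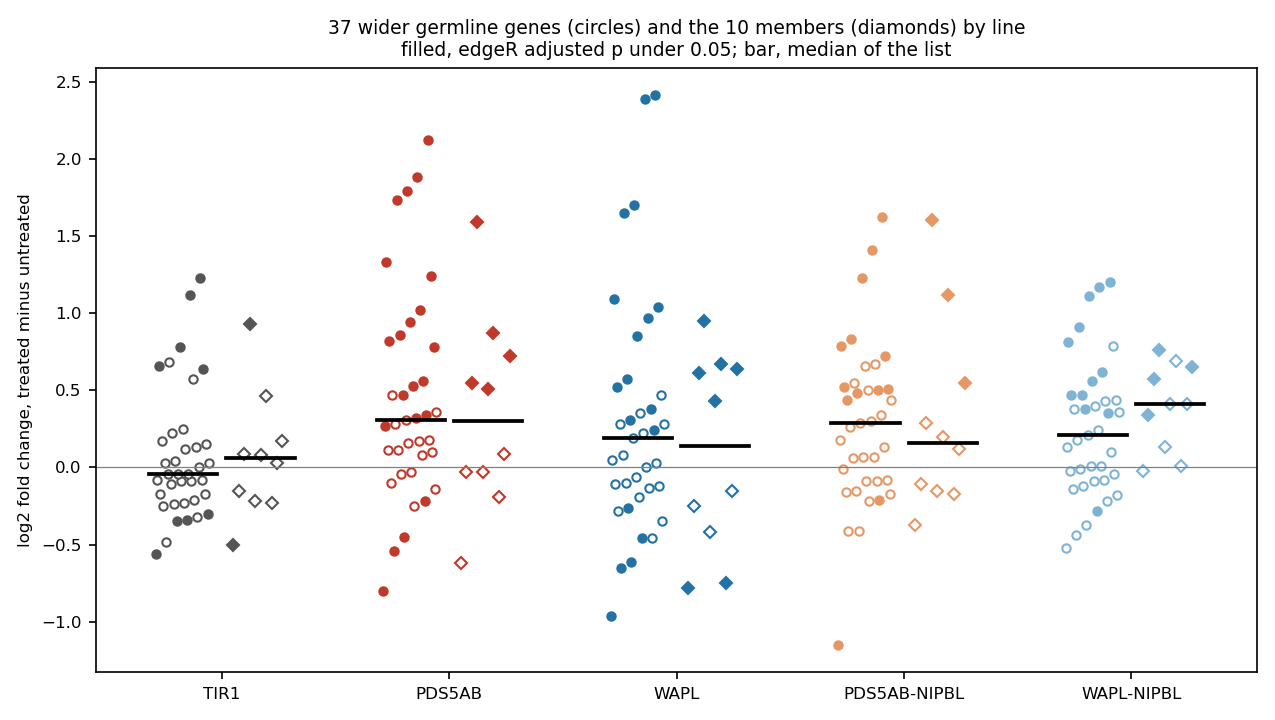
Log2 fold changes, treated minus untreated, for 37 wider germline genes (circles) and the 10 members (diamonds) in each line, filled where the edgeR adjusted p is under 0.05, with bars at list medians. The filled circles reach 2.41 in WAPL and 2.12 in PDS5AB and stay at or below 1.23 in TIR1.

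Transcripts of genes of DNA methylation, PRC1.6 and H3K9 methylation moved in the same libraries. Uhrf1 fell by 0.84 on the log2 scale in PDS5AB, by 0.43 in WAPL and by 0.30 in PDS5AB-NIPBL (edgeR adjusted p = 9.41e-12, 2.24e-06 and 0.000728). Tet2, which oxidises methylated cytosine, fell by 1.25 in WAPL and by 0.98 in WAPL-NIPBL (edgeR adjusted p = 8.44e-07 and 0.000156). Tet2 acts against the mark, so its fall is not a fall in repression, and the counts of DNA methylation genes below mix both sides. Dnmt3l fell by 1.77 in TIR1, from a mean of 128 to 37.6 CPM (edgeR adjusted p = 6.04e-11), and by 0.63 in PDS5AB. Of 10 genes of DNA methylation, 5 were lower and 3 higher in PDS5AB, 4 and 2 in WAPL, 4 and 1 in PDS5AB-NIPBL, 3 and 0 in WAPL-NIPBL, and 3 and 0 in TIR1. Of 13 genes of PRC1.6 and H3K9 methylation, 9 were lower and 2 higher in PDS5AB, 7 and 1 in WAPL, 1 and 0 in PDS5AB-NIPBL, 1 and 2 in WAPL-NIPBL, and 0 and 2 in TIR1. Over all genes, 20.2%, 15.8%, 8.06%, 3.45% and 9.59% were lower and 25.8%, 17%, 11.4%, 5.11% and 10.4% higher in these lines, in the same order. Many of these calls were lost in some alternative. Under every alternative, the DNA methylation genes lower and higher were 3 and 3 in PDS5AB, 2 and 1 in WAPL, 2 and 0 in PDS5AB-NIPBL, 2 and 0 in WAPL-NIPBL, and 2 and 0 in TIR1. Those of PRC1.6 and H3K9 methylation were 8 and 0 in PDS5AB, 4 and 1 in WAPL, 0 and 0 in PDS5AB-NIPBL, 1 and 0 in WAPL-NIPBL, and 0 and 0 in TIR1. With the replicate block, 7 of the 10 DNA methylation genes were lower in each degron line, and 10, 9, 6 and 4 of the 13 others were lower in PDS5AB, WAPL, PDS5AB-NIPBL and WAPL-NIPBL, and 2, 1, 0 and 2 were higher, with 4 higher in TIR1. The shares of all genes above belong to the fit without the block, so nothing is read from the counts with it. E2f6 was among the higher ones without the block, by log2 0.38 in WAPL (edgeR adjusted p = 0.000128), a call that held under every alternative. Its calls in PDS5AB (0.26), WAPL-NIPBL (0.27) and TIR1 (0.23) were lost in 1, 5 and 4 of 11 alternatives. Tfdp1, a partner of E2F factors, fell by 0.60 in PDS5AB and by 0.67 in WAPL (edgeR adjusted p = 1.67e-08 and 4.74e-09). The part of these changes in those of the members was not tested.

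Markers of cell state moved as well. The summed pluripotency markers went from 5370 to 5550 CPM in untreated PDS5AB libraries to 3340 to 3490 CPM in treated ones, and all 8 fell, where 20.2% of all genes did. In WAPL, PDS5AB-NIPBL and WAPL-NIPBL, 7 of the 8 fell, where 15.8%, 8.06% and 3.45% of all genes did, and in TIR1 2 were lower and 2 higher. Under every alternative, 7 were lower both for PDS5AB and for WAPL, and 6 and 5 for the same lines with the NIPBL fusion. The summed primitive endoderm markers were higher in every treated library than in every untreated one of its line, TIR1 included. They went from 21.2 to 23.0 CPM to 51.5 to 64.8 CPM in PDS5AB, from 8.60 to 12 CPM to 36.1 to 51.4 CPM in WAPL, from 8.66 to 11 CPM to 27 to 33 CPM in PDS5AB-NIPBL and from 4.12 to 5.10 CPM to 11.7 to 14 CPM in WAPL-NIPBL, and from 6.74 to 7.46 CPM to 8.89 to 10 CPM in TIR1. By gene, 3 of the 6 were called higher in PDS5AB, 4 in WAPL, 3 in PDS5AB-NIPBL, 3 in WAPL-NIPBL and 1 in TIR1, none was called lower, and 25.8%, 17%, 11.4%, 5.11% and 10.4% of all genes were higher. In TIR1 the called gene was Pdgfra (from a mean of 2.01 to 4.64 CPM), while Dab2 went from 3.97 to 3.63 CPM. Markers of other cell types moved in both directions, and their counts stand against the shares of all genes given above. Of 6 trophoblast markers, 5 were tested. Higher and lower calls were 0 and 1 in PDS5AB, 0 and 2 in WAPL and 1 and 0 in TIR1. In PDS5AB-NIPBL they were 1 and 1, and in WAPL-NIPBL 0 and 0. Cdx2 rose by log2 2.78 in TIR1 and 0.69 in PDS5AB-NIPBL (edgeR adjusted p = 9.32e-10 and 0.0111). Gata3 and Tfap2a fell by 1.32 and 0.67 in WAPL (0.00796 and 0.00144), and Eomes by 0.62 in PDS5AB and 0.80 in PDS5AB-NIPBL (0.00177 and 0.000538). Some alternatives lost Gata3 in WAPL, Eomes in PDS5AB and Cdx2 in PDS5AB-NIPBL. Of 5 mesoderm markers, higher and lower calls were 1 and 1 in PDS5AB, 2 and 1 in WAPL and 1 and 0 in TIR1. In PDS5AB-NIPBL and WAPL-NIPBL they were 1 and 1. T rose by 2.02 in TIR1, 1.48 in WAPL, 0.82 in WAPL-NIPBL and 0.59 in PDS5AB-NIPBL (edgeR adjusted p = 1.91e-07, 1.95e-07, 0.00117 and 0.015). The last was lost in 3 of 11 alternatives. Kdr fell by 1.92 in WAPL (edgeR adjusted p = 1.89e-08) and also in the other 3 degron lines. Mixl1 rose by 1.15 in PDS5AB (0.00594). Mesp1 rose by 1.90 in WAPL (0.0452), a call lost in 7 of 10 alternatives. Of 5 neural markers, 4 were tested. Higher and lower calls were 1 and 2 in PDS5AB, 1 and 1 in WAPL and in PDS5AB-NIPBL. In WAPL-NIPBL they were 0 and 1, and in TIR1 0 and 2. Pax6 rose by 3.22 in WAPL (edgeR adjusted p = 2.06e-06), where Sox1 fell by 1.33 (edgeR adjusted p = 6.62e-08). Nes rose by 0.61 in PDS5AB and 0.72 in PDS5AB-NIPBL (7.81e-05 and 3.63e-05). Tubb3 fell by 0.43 in PDS5AB and 0.52 in TIR1 (0.0137 and 0.00779), calls lost in 2 and 1 of 11 alternatives. Sox1 was called lower in all 5 lines, though in TIR1 the call was lost without untreated replicate 1 (0.244) or treated replicate 1 (0.0804) or 3 (0.0906). Of 7 markers of Sertoli and other somatic gonad cells, 4 were higher and 0 lower in PDS5AB, where 25.8% of all genes were higher. Among them were Sox9 by log2 2.74 (from a mean of 0.333 to 2.22 CPM, edgeR adjusted p = 1.75e-06) and Gata4 by 1.08 (edgeR adjusted p = 0.000138). Of the 4, 2 held under every alternative. Amh (log2 change 0.02), Wt1 (-0.01) and Star (0.08) were not called there (edgeR adjusted p = 0.972, 0.99 and 0.629). In TIR1, WAPL and PDS5AB-NIPBL 1 was higher in each, a call lost in some alternative each time, and in WAPL-NIPBL 0. Of 8 fibroblast markers, 4 were tested, and 3 were higher in PDS5AB (2 under every alternative) and 3 lower in WAPL (3 under every alternative). Of all genes, 25.8% were higher in PDS5AB and 15.8% lower in WAPL. In TIR1 and in PDS5AB-NIPBL 1 was higher and 1 lower, and in WAPL-NIPBL 0 and 1. Col1a1, a collagen gene, rose by log2 1.02 in PDS5AB and 0.81 in PDS5AB-NIPBL and fell by 1.39 in WAPL (edgeR adjusted p = 4.95e-05, 0.00277 and 1.33e-06). Thy1 fell by 1.78 in WAPL and 0.82 in TIR1 (edgeR adjusted p = 8.01e-07 and 0.00302). It also fell by 0.63 in PDS5AB-NIPBL and 0.92 in WAPL-NIPBL (0.0486 and 0.00888), calls lost in 5 and 2 of 11 alternatives. Pdgfrb rose by 0.66 in TIR1 and 0.94 in PDS5AB (0.00273 and 7.5e-06). Col1a2 rose by 1.04 in PDS5AB, a call lost in 1 of 11 alternatives, and fell by 1.67 in WAPL (0.00888 and 0.00249).

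Primordial germ cell markers summed to 253 to 310 CPM before and 157 to 176 CPM after treatment in PDS5AB, and to 448 to 462 CPM before and 609 to 630 CPM after in TIR1. By gene, in PDS5AB 3 of the 7 were higher and 3 lower, in WAPL 1 and 4, in PDS5AB-NIPBL 1 and 4, in WAPL-NIPBL 0 and 3, and in TIR1 4 and 1, against the shares of all genes given above (25.8% higher and 20.2% lower in PDS5AB). Under every alternative these were 2 and 3, 1 and 3, 0 and 3, 0 and 2, and 3 and 1. Most of the sum was Kit, which went from a mean of 194 to 102 CPM in PDS5AB and from 299 to 403 CPM in TIR1, while Prdm1 went from 3.30 to 6.41 CPM in PDS5AB. Tfap2c went from a mean of 81.7 to 18.4 CPM in WAPL, fell in the other degron lines too, and rose from 75.8 to 118 CPM in TIR1. Late male germ cell markers stayed near 0, but their sum was higher in treated than in untreated libraries of 3 lines, with 0.101 to 0.414 CPM before and 0.784 to 1.08 CPM after treatment in PDS5AB, 0.236 to 0.388 and 0.484 to 0.537 CPM in WAPL, and 0.0705 to 0.142 and 0.173 to 0.245 CPM in WAPL-NIPBL. In TIR1 and PDS5AB-NIPBL the ranges overlapped. These sums rest on few counts, so no pattern over lines is read from them. In WAPL-NIPBL, Acrv1 had 0, 0 and 3 counts before and 1, 6 and 3 after treatment. In WAPL, Tnp2 went from 0, 0 and 0 counts to 6, 0 and 1. In PDS5AB, Spaca1 went from 0, 0 and 4 counts to 17, 10 and 7, and Odf1 from 2, 1 and 2 counts to 7, 9 and 4. None of the 8 passed the filter on low counts, so they were not tested. The part of these shifts in the changes of the members was not tested.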

How the data were processed

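RNA was measured in 30 libraries, 3 in each of 10 groups taken from the sample titles. Per the file headers, the authors counted fragments per gene with featureCounts 2.0.1 and no strand option, so the deposited values are raw counts although the kit is stranded. No exon of a member overlaps another gene, and Stk31 and Smc1b each span a gene on the opposite strand without shared exons. Per the submitters' processing notes, STAR 2.7.7a and GRCm38.p6 were used. Identifiers of 55154 genes (99.5%) matched a symbol.

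Counts were tested in R 4.3.3 with edgeR 4.0.16 (quasi-likelihood, TMM scaling with factors of 0.950 to 1.13, filterByExpr with a minimum count of 10, 10 group means, 20 residual degrees of freedom, Benjamini-Hochberg over 19868 genes, called under 0.05, two-sided). The fit was tested on simulated data. CPM are TMM-scaled, and FPKM divide them by the length column of the deposited table. Errors of group means are SDs over 3 libraries. RLE size factors, DESeq2 1.42.0, no filter, the compared groups alone, a replicate block and leaving out each library were the 11 alternatives to each treatment effect. Calls of members that they changed are given with the results or in the closing section.

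Same-numbered untreated and treated libraries deviated together in the 4 degron lines (r of 0.109 to 0.333), so their numbers were taken as pairs, but not in TIR1 (r of -0.0102 to 0.0574). Counts, calls and adjusted p come from the fit without pairing unless a replicate block is named, so they leave these pairs out. Shares of all genes come from that fit alone.

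The members and the lists were chosen with earlier results of these data known. All members were named, with the 5 genes most like Fkbp6 and its nearest tested neighbours. Of the other lists some genes were named, not always those with the largest called changes. Cyct, Hsf2bp, Majin, Tuba3a, Tuba3b, D1Pas1 and Tdrd7 were named after their values were seen, as were Prm2, Spaca1, Odf1, Acrv1, Tnp2, Kit, Prdm1 and Tfap2c. The same holds for Gata3, Eomes, Mixl1, Mesp1, Nes, Tubb3, Amh, Wt1, Star, Pdgfrb and Col1a2.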

Additional observations from a re-analysis of the deposited data

Results flagged for a closer look

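In 24 of 70 cases the treatment effect of a member differed between lines in edgeR's quasi-likelihood test of the difference itself, 17 in the upward direction. Over all genes, 5.19% to 26.3% were called in each of these differences, and 3.03% to 13.9% in the upward direction. Values are log2 differences of treatment effects, first line minus second, with Benjamini-Hochberg adjusted p, and differences against TIR1 span the 2 ranges of library numbers.

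Fkbp6 differed for PDS5AB-NIPBL minus PDS5AB (1.17, edgeR adjusted p = 0.00804), WAPL-NIPBL minus WAPL (1.12, 4.02e-06) and WAPL minus TIR1 (-0.95, 5.02e-06), and these calls held under every alternative. For PDS5AB minus TIR1 (-0.79, edgeR adjusted p = 0.0372) the call was lost without untreated PDS5AB replicate 1 (0.0545), 2 (0.0907) or 3 (0.0564), treated PDS5AB replicate 2 (0.197) or treated TIR1 replicate 3 (0.0548) and with the compared groups alone (0.0507), over a range of 0.0131 to 0.197.

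Dazl differed for WAPL minus TIR1 (-1.08, edgeR adjusted p = 0.00122), PDS5AB-NIPBL minus TIR1 (-1.07, 0.00804) and PDS5AB minus WAPL (1.03, 0.00711), all held under every alternative. The difference of PDS5AB-NIPBL minus PDS5AB (-1.02, edgeR adjusted p = 0.0201) and its lost calls are given above.

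Ddx4 differed for PDS5AB minus TIR1 (0.73, edgeR adjusted p = 0.0173), WAPL minus TIR1 (0.82, 0.0125) and WAPL-NIPBL minus TIR1 (0.79, 0.0395). The first was lost without treated PDS5AB replicate 3 (0.0603) or untreated TIR1 replicate 2 (0.055), over a range of 0.000196 to 0.0603. The second was lost without treated WAPL replicate 3 (0.0509) or untreated WAPL replicate 1 (0.0515), over a range of 0.000172 to 0.0515. The third was lost without treated TIR1 replicate 1 (0.0866) or 2 (0.0867), untreated TIR1 replicate 1 (0.0712) or 2 (0.112), treated WAPL-NIPBL replicate 2 (0.0968) or 3 (0.0775) or untreated WAPL-NIPBL replicate 1 (0.127), over a range of 0.000519 to 0.127.

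Mael differed for PDS5AB minus TIR1 (1.22, edgeR adjusted p = 9.03e-05), WAPL minus TIR1 (0.93, 0.0033) and PDS5AB-NIPBL minus PDS5AB (-1.09, 0.00319), all held under every alternative. For WAPL-NIPBL minus TIR1 (0.91, edgeR adjusted p = 0.0176) the call was lost without treated TIR1 replicate 3 (0.0609) or treated WAPL-NIPBL replicate 3 (0.0506), over a range of 0.00278 to 0.0609.

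Tex101 differed for PDS5AB minus TIR1 (1.13, edgeR adjusted p = 0.00124) and PDS5AB-NIPBL minus TIR1 (1.14, 0.00678), both held under every alternative. For PDS5AB minus WAPL (0.92, edgeR adjusted p = 0.0178) the call was lost without untreated PDS5AB replicate 3 (0.0503), treated WAPL replicate 3 (0.063) or untreated WAPL replicate 1 (0.0655), over a range of 0.000731 to 0.0655.

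Taf7l differed for PDS5AB-NIPBL minus TIR1 (1.28, edgeR adjusted p = 0.0041) and PDS5AB-NIPBL minus PDS5AB (1.15, 0.0146), both held under every alternative. For WAPL minus TIR1 (0.80, edgeR adjusted p = 0.0272) the call was lost without treated TIR1 replicate 1 (0.0644) or 3 (0.0628), untreated TIR1 replicate 2 (0.098), treated WAPL replicate 2 (0.0803) or untreated WAPL replicate 1 (0.0714) or 3 (0.0582) and without the filter on low counts (0.111), over a range of 0.00958 to 0.111. For WAPL-NIPBL minus TIR1 (0.91, edgeR adjusted p = 0.027) it was lost without treated TIR1 replicate 1 (0.0669) or 3 (0.069), untreated TIR1 replicate 2 (0.1), treated WAPL-NIPBL replicate 2 (0.0688) or untreated WAPL-NIPBL replicate 1 (0.077) and without the filter (0.088), over a range of 0.00509 to 0.1.

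Stk31 differed for WAPL minus TIR1 (-0.83, edgeR adjusted p = 0.00659), held under every alternative. For WAPL-NIPBL minus WAPL (0.88, edgeR adjusted p = 0.0177) the call was lost without treated WAPL-NIPBL replicate 1 (0.0561), untreated WAPL-NIPBL replicate 3 (0.0635), treated WAPL replicate 3 (0.056) or untreated WAPL replicate 1 (0.0593), over a range of 1.9e-05 to 0.0635.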

How the results depend on the processing

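No member reversed its direction among called changes under any alternative run. RLE size factors changed no call, and DESeq2 changed 1 of the 120 member and comparison pairs. With the replicate block, 16 of the 120 pairs gained a call and none lost one. The number of members called with the block was 5 for the TIR1 treatment effect (2 without it), 5 for PDS5AB-NIPBL minus TIR1 (3 without it), 4 for WAPL-NIPBL minus WAPL and 4 for PDS5AB minus WAPL (2 without it in each), and of the wider list it called 15 genes in TIR1 and 21 in PDS5AB-NIPBL (9 and 13 without it). TIR1 libraries share only a number, and no share of all genes is given with the block. The calls gained with the block and not named above were Fkbp6 (edgeR adjusted p = 0.02), Tex101 (0.00243) and Smc1b (0.0367) in TIR1, Fkbp6 (0.00236) and Ddx4 (0.0214) for PDS5AB-NIPBL minus TIR1, Slc25a31 (0.028) and Stag3 (0.0193) for WAPL minus TIR1, Dazl (0.000862) for WAPL-NIPBL minus TIR1, Dazl (0.000498) and Smc1b (0.0139) for WAPL-NIPBL minus WAPL, and Stk31 (0.00746) and Smc1b (0.00579) for PDS5AB minus WAPL. With no filter, calls were also gained for Dazl in WAPL-NIPBL minus TIR1 (0.00821) and minus WAPL (0.00641) and for Smc1b in PDS5AB minus WAPL (0.0489). With the compared groups alone Dazl was gained for WAPL-NIPBL minus TIR1 (0.0313), and without treated TIR1 replicate 3 Slc25a31 was gained for WAPL minus TIR1 (0.044). Leaving out single libraries gave 1 to 2 members for TIR1, 2 to 3 for WAPL-NIPBL (4 with all libraries), 1 to 3 for WAPL-NIPBL minus TIR1, 1 to 2 for WAPL-NIPBL minus WAPL, 1 to 2 for PDS5AB minus WAPL, and 5 to 9 genes of the wider list for TIR1. The lowest counts per library among the members were 9 for Fkbp6 in PDS5AB, 14 for Slc25a31 and 16 for Taf7l.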
